A study of Homo sapiens with 4 samples.

Results

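The transcripts of 9 genes that cut the extracellular matrix or restrain that cutting were followed in the colon cancer cell line RKO with and without knockdown of CHD7, an ATP-dependent chromatin remodeller. The 9 genes were the secreted matrix metalloproteinases MMP1, MMP3 and MMP10, the membrane-type metalloproteinases MMP14 and MMP15, the metalloproteinase inhibitors TIMP1 and TIMP2, and the plasminogen activator PLAU with its receptor PLAUR. They were taken by gene symbol, were 9 of the 15357 genes measured, and all 9 were present. MMP1, MMP3 and MMP10 were selected on their higher counts and FPKM after knockdown in these same samples, and the other 6 were added to ask whether that rise extended to related proteases, to inhibitors and to plasminogen activation. The knockdown contrast therefore chose the members, so their values, and the count of members past the thresholds used for all genes, are given as a description and no p-value is printed for any of them.

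RNA-seq libraries were made with oligo-dT beads from RKO cells that stably carried lentivirus, with 2 samples expressing a control construct (vector) and 2 expressing a single CHD7 short hairpin (shCHD7_2). All 4 were grown in the same medium with serum, and an effect of CHD7 loss cannot be told apart from an effect particular to this hairpin or to this infected line. The labels do not say whether the 2 samples of a group were separate cultures, so p-values measure the spread between these samples, which may be technical. With 2 samples against 2, an exact two-sided permutation test of a single value cannot go below p = 0.333.

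The libraries held between 15734679 and 16068650 estimated read counts, and 1 count corresponded to between 0.0624 and 0.0644 CPM, the count scaled to a common library size. Of the 15357 genes, 11955 passed the filter on low counts and were tested. CHD7 itself had 1326 and 1436 counts in the vector samples and 890 and 800 in the shCHD7_2 samples, a log2 fold change of -0.74 ± 0.088 (SE, adjusted p = 4.15e-06, edgeR's quasi-likelihood test, adjusted by the Benjamini-Hochberg method). Both hairpin samples were below both vector samples. Of 10 epithelial markers 7 were measured. KRT8, KRT18, EPCAM and CDX2 were detected in every sample, with EPCAM between 161 and 173 counts. KRT20, LGALS4 and CDH1, which encodes E-cadherin, had at most 1 count in any sample.

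Matrix metalloproteinases are zinc enzymes that are made as inactive proenzymes and are switched on when a propeptide is removed, often by another protease. MMP1 (interstitial collagenase) cuts fibrillar collagens. MMP3 and MMP10 (stromelysins) cut proteoglycans, laminin and other matrix proteins, and MMP3 can also activate pro-MMP1. The TIMPs bind active metalloproteinases in a complex that blocks the catalytic site, and TIMP2 also takes part, together with MMP14, in activating pro-MMP2 at the cell surface. PLAU, the urokinase-type plasminogen activator, binds its receptor PLAUR on the cell surface and turns plasminogen into plasmin, which can itself activate metalloproteinases. In colorectal tumours much of this set of genes is known to be expressed by stromal cells, and the cultures measured here are of a tumour line alone.

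MMP3 and MMP10 are close relatives, so the part of their transcripts that a read could not tell apart is shown first. The longest stretch that the GENCODE 29 transcripts of both genes share is 96 bases long and lies in coding exon 3 of each (GRCh38, minus strand, chr11:102779216-102779311 in MMP10 and chr11:102842434-102842529 in MMP3). No base is capitalised because all of them are identical.
MMP10 and MMP3, exon 3: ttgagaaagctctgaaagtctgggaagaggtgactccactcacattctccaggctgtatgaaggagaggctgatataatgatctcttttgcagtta
Of all words of 50 bases in the MMP10 transcripts, 3.36% also occurred in MMP3, and 2.95% of the MMP3 words occurred in MMP10. MMP1 shared no word of 50 or of 25 bases with either. All 4 deposited counts of MMP3 and of MMP10 were whole numbers, so no fraction of a read had been divided between them in these estimates. The antisense pseudogene WTAPP1 overlaps all of MMP1 and MMP10 and 966 bases of MMP3. It was not analysed here, and since the strand setting of the counting is not given in the sources used here, reads of the gene and of its antisense partner cannot be told apart.

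MMP1, MMP3 and MMP10 were all higher in the shCHD7_2 samples, from very low levels. MMP1 had 34 and 42 counts in the vector samples and 512 and 480 in the shCHD7_2 samples. On the length-normalised FPKM scale these were 1.14 and 1.38 against 17.2 and 16.03. The 2 groups did not overlap, and the log2 fold change was 3.67 ± 0.16 (SE), or 12.7-fold. The replicates lay within 1.21-fold of each other in the vector group and 1.06-fold in the shCHD7_2 group, and the smallest log2 CPM difference between any shCHD7_2 and any vector sample was 3.5.

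MMP10 had 1 and 6 counts in the vector samples, close to the limit of detection, and 107 and 88 in the shCHD7_2 samples. Its FPKM values were 0.04 and 0.23 against 4.26 and 3.48. Over the summed counts of each group the ratio was 27.3, with a 95% interval of 12.98 to 68.7 that covers counting error only. The fitted log2 fold change was 4.72 ± 0.38 (SE). It was 3.97 without vector replicate 1 and 6.40 without vector replicate 2, so the size of the fold rests on single reads in the vector group, whereas the shCHD7_2 samples were above both vector samples in either case.

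MMP3 was the scarcest of the 9 genes on the FPKM scale in every library, tied with MMP10 at 0.04 FPKM in vector replicate 1. Its counts were 1 and 3 in the vector samples and 36 and 17 in the shCHD7_2 samples, which differed 2.11-fold from each other. The FPKM values were 0.04 and 0.11 against 1.31 and 0.62. The ratio of the summed counts was 12.97 (95% counting interval 4.78 to 49.3), and the fitted log2 fold change was 3.62 ± 0.60 (SE). Leaving out vector replicate 1 gave 3.07, leaving out vector replicate 2 gave 4.52, and leaving out shCHD7_2 replicate 1 gave 2.98. Even in the shCHD7_2 samples MMP3 was therefore a low transcript, at percentile 28.2 of all genes measured by mean FPKM, against 67.5 for MMP1 and 38.6 for MMP10.

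**Figure D1:**
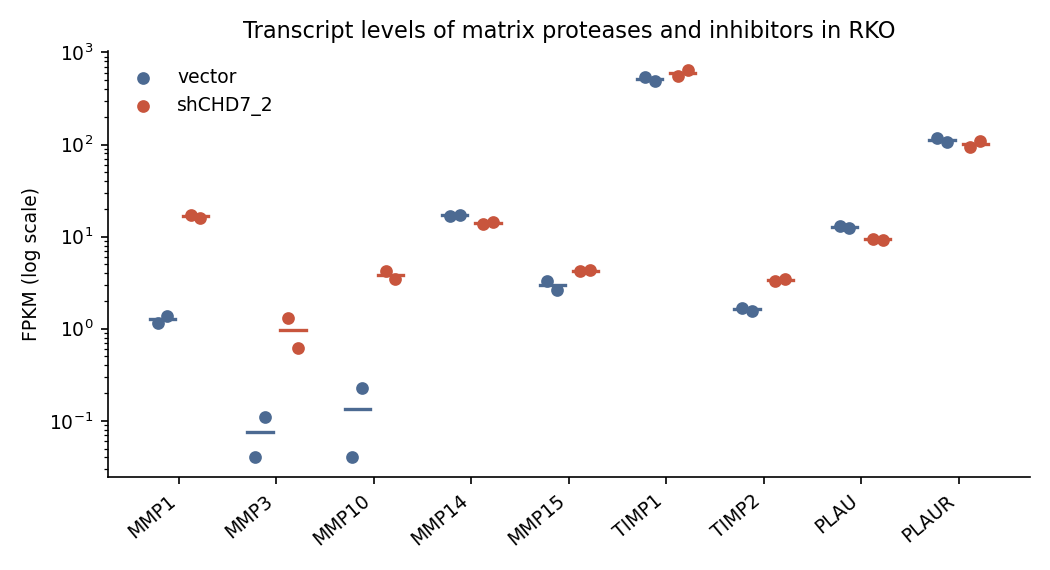
FPKM of the 9 genes (log axis) in the 2 vector samples (blue) and the 2 shCHD7_2 samples (red), each point 1 sample and each line the mean of its group. The points of MMP1, MMP3, MMP10, MMP15 and TIMP2 lie higher in both shCHD7_2 samples, those of MMP14 and PLAU lie lower, and those of PLAUR overlap. The TIMP1 points are slightly higher in both shCHD7_2 samples on this scale but overlap on the CPM scale.

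The membrane-type metalloproteinases did not share in a change of that size. MMP14, the membrane-anchored collagenase and the most abundant metalloproteinase of the vector cells, had 914 and 949 counts in the vector samples and 737 and 785 in the shCHD7_2 samples, or 16.91 and 17.21 FPKM against 13.64 and 14.47. Both shCHD7_2 samples were below both vector samples, with a log2 fold change of -0.32 ± 0.088 (SE), or 1.25-fold lower. MMP15, a second membrane-type enzyme, had 213 and 172 counts in the vector samples and 271 and 280 in the shCHD7_2 samples. Its FPKM values were 3.31 and 2.62 against 4.21 and 4.34, so the groups did not overlap, and the log2 fold change was 0.49 ± 0.14 (SE). This stayed under the 1.5-fold threshold, which MMP15 passed when vector replicate 1 was left out (0.66) and not when any other sample was. Within the vector group the 2 MMP15 values differed 1.26-fold.

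Other metalloproteinases of the family were measured too. MMP11 (stromelysin-3) had 125 and 120 counts against 137 and 158, MMP19 had 51 and 55 against 59 and 67, and the membrane-anchored MMP25 had 101 and 114 against 102 and 140. None of the 3 was called in edgeR, DESeq2 or limma, and 0 had an unadjusted p under 0.05, with log2 fold changes of 0.24 ± 0.16, 0.22 ± 0.21 and 0.14 ± 0.18 (SE) and adjusted p-values of 0.367, 0.566 and 0.675 in edgeR's quasi-likelihood test. The sign of the MMP25 value was negative without shCHD7_2 replicate 2 (-0.11). MMP12, MMP17, MMP21, MMP23B and MMP24 had at most 9.55 counts in any library and were not tested. MMP2, MMP7, MMP8, MMP9, MMP13, MMP16, MMP20, MMP26, MMP27 and MMP28 were not analysed here.

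The balance within the family moved towards MMP1, MMP3 and MMP10, the genes selected on their rise. The FPKM values of the 13 measured metalloproteinases summed to 28.52 and 28.61 in the vector samples and to 48.3 and 47.92 in the shCHD7_2 samples. Without MMP1, MMP3 and MMP10 the sums were 27.3 and 26.89 against 25.53 and 27.79, which overlap. MMP1, MMP3 and MMP10 together made up 4.28% and 6.01% of the family sum in the vector samples and 47.1% and 42.0% in the shCHD7_2 samples. The share of MMP14 went from 59.3% and 60.2% to 28.2% and 30.2%, and in both shCHD7_2 samples MMP1 stood above MMP14 on the FPKM scale.

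**Figure D2:**
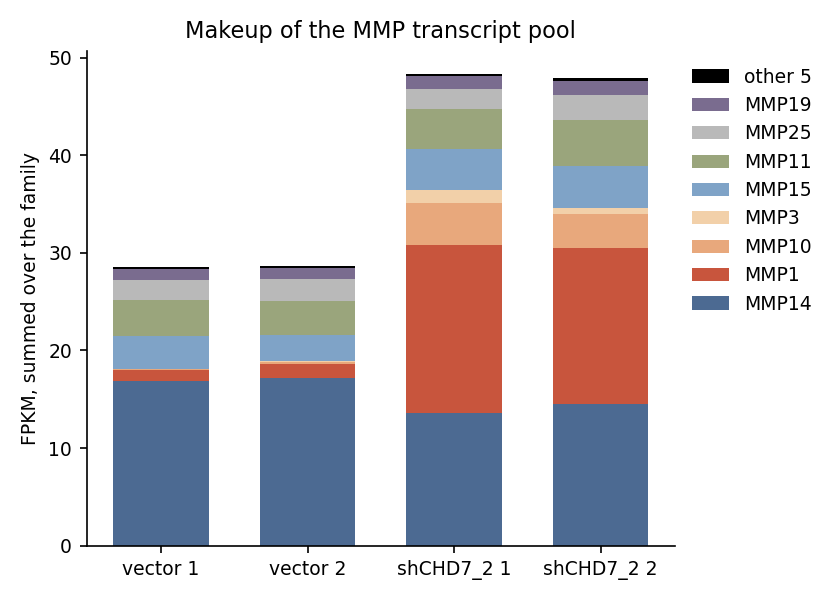
FPKM summed over the 13 measured metalloproteinases, stacked by gene, for each of the 4 samples. The bars reach 28.52 and 28.61 in the vector samples and 48.3 and 47.92 in the shCHD7_2 samples, and most of the added height is the MMP1 and MMP10 segments while MMP14 is slightly shorter.

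Of the inhibitors, TIMP2 was higher, and TIMP1 was close to level, with groups that overlapped on the CPM scale. TIMP2 had 93 and 88 counts in the vector samples and 182 and 190 in the shCHD7_2 samples, or 1.69 and 1.57 FPKM against 3.31 and 3.44. Its log2 fold change was 1.01 ± 0.16 (SE), or 2.01-fold, and the smallest log2 CPM difference between samples of the 2 groups was 0.92 against replicate ranges of 0.10 and 0.069. TIMP1 was by far the most abundant of the 9 genes, at 541 and 494 FPKM in the vector samples and 558 and 643 in the shCHD7_2 samples, at percentiles 99.1 and 99.2 of all genes measured. Its counts were 6492 and 6019 against 6644 and 7742, with a log2 fold change of 0.17 ± 0.080 (SE). On the CPM scale shCHD7_2 replicate 1 lay below vector replicate 1, whereas on the FPKM scale both shCHD7_2 values were above both vector values. RECK and A2M, further metalloproteinase inhibitors, had at most 1 and 2 counts in any library, and TIMP3 and TIMP4 were not analysed here.

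Since TIMP1 was near level and MMP1 was not, the 2 transcripts came closer together. TIMP1 exceeded MMP1 475-fold and 358-fold on the FPKM scale in the vector samples and 32.5-fold and 40.1-fold in the shCHD7_2 samples. TIMP1 transcripts thus remained in excess over MMP1 transcripts in every sample. The ratio of TIMP2 to MMP14 FPKM was 0.0999 and 0.0912 in the vector samples and 0.243 and 0.238 in the shCHD7_2 samples, and TIMP2 stayed well under MMP14 throughout. These are ratios of transcripts; protein and enzyme activity were not measured here.

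The plasminogen activator and its receptor were not higher in the shCHD7_2 samples. PLAU had 453 and 441 estimated counts in the vector samples and 327.44 and 326 in the shCHD7_2 samples, or 12.97 and 12.39 FPKM against 9.42 and 9.29. Both shCHD7_2 samples were below both vector samples, with a log2 fold change of -0.48 ± 0.10 (SE), or 1.40-fold lower, under the 1.5-fold threshold. PLAUR, the second most abundant of the 9 genes in every sample, had 2521 and 2282 counts against 1991 and 2315, and the groups overlapped. Its FPKM values were 118 and 106 against 94.3 and 109, and its log2 fold change was -0.19 ± 0.087 (SE). PLAU overlaps the gene C10orf55 on the other strand, which had between 6 and 7.56 counts, TIMP1 lies within SYN1 on the other strand, which had at most 5 counts, and TIMP2 holds CEP295NL, which had at most 1 count.

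**Figure D3:**
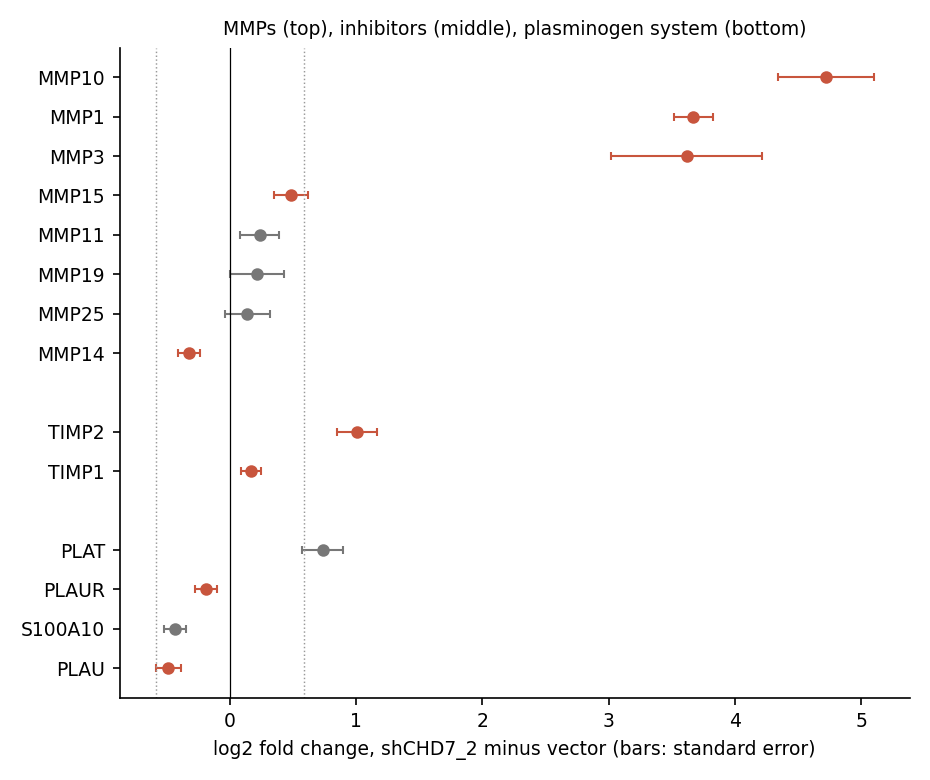
Log2 fold changes (shCHD7_2 minus vector) with standard errors for the tested metalloproteinases and inhibitors and for PLAU, PLAUR, PLAT and S100A10 of the plasminogen system, with the 9 members in red, other genes in grey and dotted lines at 1.5-fold either way. MMP10, MMP1 and MMP3 lie above 3, TIMP2 at 1.01 and PLAT at 0.74, and the other genes lie within the dotted lines.

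Counted over the 9 genes, 4 were called higher, meaning a 1.5-fold or larger change with an adjusted p below 0.05 (MMP1, MMP3, MMP10 and TIMP2) and none was called lower. Across all genes tested, 2.88% were called, 1.51% higher and 1.37% lower, and nothing is read from the comparison because the contrast chose the members. All 9 genes passed the filter on low counts, MMP3 and MMP10 only through the shCHD7_2 samples. In 5 of the 9 genes both shCHD7_2 samples were above both vector samples, and in 2 both were below. With only 2 samples a group this is common, and it held for 53.7% of all genes tested, 26.4% above and 27.3% below. The median log2 fold change was 0.49 over the 9 genes and 0.00056 over all genes tested.

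**Figure D4:**
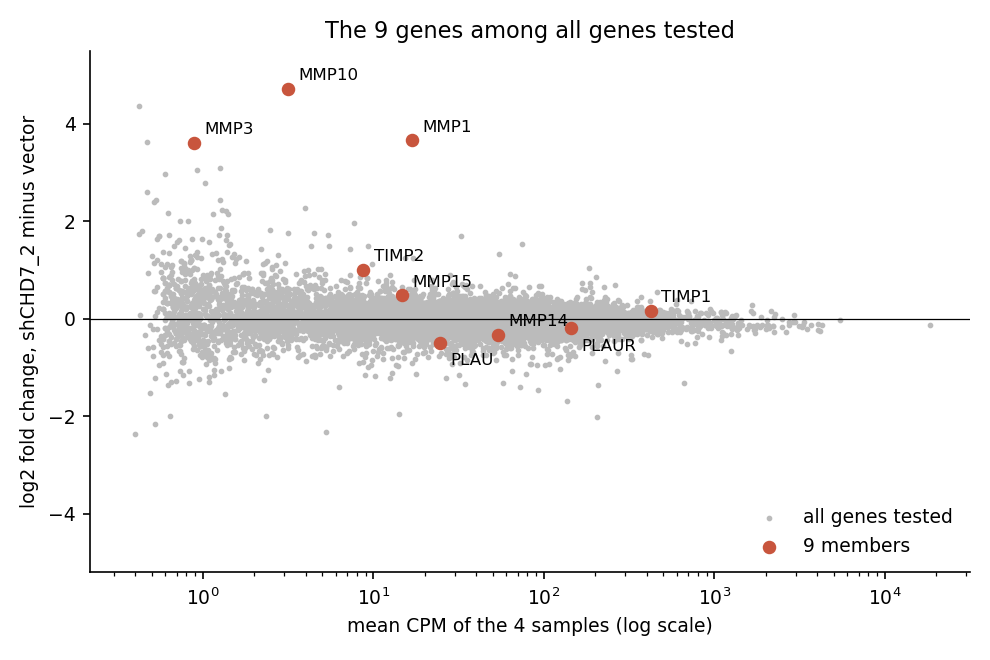
Log2 fold change (shCHD7_2 minus vector) against the mean CPM of the 4 samples (log axis), with each grey point a tested gene and the 9 genes in red. Points above 5.5 and points past the lower end fall outside the axis, and the lowest tested gene was at -9.89. MMP1, selected on its rise in these samples, lies at a log2 fold change of 3.67, apart from genes of like abundance. MMP3 lies among low-count genes with a wide spread, and MMP14, PLAU, PLAUR and TIMP1 lie near the line at 0.

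MMP10, MMP1 and MMP3 are neighbours in the metalloproteinase cluster of chromosome 11 (GENCODE 29, GRCh38), all on the minus strand, at chr11:102770503-102780628, chr11:102789920-102798160 and chr11:102835801-102843803. Together they span 73.3 kb, with 9.3 kb between MMP10 and MMP1 and 37.6 kb between MMP1 and MMP3. The macrophage elastase MMP12, next to MMP3, had no counts in the vector samples and 2 and 0 in the shCHD7_2 samples. The tested genes on either side were YAP1, BIRC3, BIRC2 and TMEM123 on the MMP10 side and DCUN1D5 and DYNC2H1 on the MMP3 side, and none of the 6 was called in edgeR, DESeq2 or limma (4 had an unadjusted p under 0.05 in edgeR). BIRC3, an inhibitor of apoptosis, had a log2 fold change of 0.40 ± 0.11 (SE, adjusted p = 0.0164, edgeR's quasi-likelihood test). YAP1 and DYNC2H1 were lower by less than 1.5-fold, at -0.30 ± 0.082 (SE, adjusted p = 0.0171, edgeR) and -0.32 ± 0.093 (SE, adjusted p = 0.0274, edgeR). The other 6 genes lie on other chromosomes: MMP14 at chr14:22836557-22849027, MMP15 at chr16:58025566-58046901, TIMP1 at chrX:47582313-47586789, TIMP2 at chr17:78852977-78925387, PLAU at chr10:73909177-73917497 and PLAUR at chr19:43646095-43670547.

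The promoters of MMP10 and MMP14 are set side by side because these genes stood at opposite ends of the family, the first barely detected in vector cells and higher in shCHD7_2, the other abundant and slightly lower. Sequences were taken from RefSeq (GRCh38.p14) and run 5′ to 3′ on the strand of the gene over 90 bases, from position -90 to -1 of MMP10 (chr11:102780629-102780718, minus strand) and from position -118 to -29 of MMP14 (chr14:22836467-22836556, plus strand). Capitals mark a TATA box (TATAAA) in MMP10 and a GC box (GGGCGG) in MMP14.
MMP10: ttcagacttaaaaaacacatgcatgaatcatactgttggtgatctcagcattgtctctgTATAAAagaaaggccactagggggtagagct
MMP14: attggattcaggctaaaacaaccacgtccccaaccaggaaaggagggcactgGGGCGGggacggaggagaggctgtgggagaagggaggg
The TATA box of MMP10 lies at positions -31 to -26 from the start. Over the 250 bases upstream, MMP10 had 34.4% G and C, against a median of 58.0% over 35116 promoters, and MMP14 had 56.8%, TIMP1 64.8%, PLAUR 63.2% and MMP15 74.8%. Among the promoters found, TATAAA occurred only in that of MMP10, and it occurred in 10.7% of all promoters and in 5.48% of those of tested genes on either strand. GC boxes, present in 42.6% of all promoters and 64.2% of those of tested genes, occurred 1 time in MMP14, 2 times in TIMP1, 5 times in MMP15 and 3 times in 1 of the 2 listed promoters of PLAU. An AP-1 site (TGAGTCA or its reverse complement TGACTCA), present in 4.20% of all promoters and 2.89% of those of tested genes, was found only in PLAUR, at positions -186 to -180 from its start, and an ETS site (AGGAAG), present in 28.7% and 27.6%, in TIMP1, PLAUR and 1 of the 2 listed promoters of PLAU. These are exact matches of letters in a short window, and near matches were not counted. MMP1, MMP3 and TIMP2 were not in the promoter table, so no motif was sought in their promoters.

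Outside the 9 genes, the wider protease network was counted over lists of genes. Over 10 lists without the 9 members, 121 of 170 listed genes were measured and 83 were tested. The lists held proteases, inhibitors, cofactors and regulators, and 1 list was the chromosome 11 cluster with its flanking genes, taken by position. Of the 83 genes, 5 were called higher and 4 lower, or 10.8% against 2.88% of all genes. The share is above that of all genes. Nothing is read from it, because the lists were chosen with earlier results of these data known. In addition, PDGFB and CXCL8 passed the filter on low counts only through the shCHD7_2 samples. The median log2 fold change of the 83 genes was 0.052. In the plasminogen system 9 further genes were tested and 1 was called, PLAT, the tissue-type plasminogen activator. It had 89 and 105 counts in the vector samples and 161 and 169 in the shCHD7_2 samples, with a log2 fold change of 0.74 ± 0.16 (SE, adjusted p = 0.00335, edgeR's quasi-likelihood test), and so stood on the opposite side of 0 from PLAU. S100A10, a plasminogen-binding surface protein, had a log2 fold change of -0.43 ± 0.085 (SE, adjusted p = 0.00144, edgeR), under the fold threshold.

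Among 12 tested ADAM and ADAMTS genes, which are relatives of the metalloproteinases, 2 were called, both lower. ADAM9, a membrane-bound sheddase, had 2733 and 2890 counts in the vector samples and 1759 and 1609 in the shCHD7_2 samples (log2 fold change -0.77 ± 0.079, SE, adjusted p = 5.1e-07, edgeR's quasi-likelihood test). The proteoglycan-cleaving ADAMTS9 had 84 and 93 against 53 and 55 (-0.74 ± 0.20, SE, adjusted p = 0.0145, edgeR), a call lost without vector replicate 2 (-0.68, adjusted p = 0.125, edgeR). Of 9 tested serine proteases and Kunitz inhibitors only SPINT2, an inhibitor of hepsin and matriptase, was called, with 81 and 76 counts against 126 and 148 (0.77 ± 0.17, SE, adjusted p = 0.00451, edgeR). None of 12 tested cathepsins and cystatins was called in edgeR, DESeq2 or limma (4 had an unadjusted p under 0.05 in edgeR), and at adjusted p alone only CTSD passed (0.27 ± 0.084, SE, adjusted p = 0.0378, edgeR). Of 12 activators, surface partners and crosslinkers, LOX, the collagen crosslinking oxidase, was called lower with 94 and 106 counts against 67 and 65 (-0.63 ± 0.18, SE, adjusted p = 0.0279, edgeR), a call lost without either vector replicate or without shCHD7_2 replicate 2 (-0.55 to -0.70, adjusted p = 0.0529 to 0.229). The hyaluronan receptor CD44, a known docking partner of metalloproteinases, was below the fold threshold (-0.42 ± 0.074, SE, adjusted p = 4.7e-04, edgeR).

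Genes known to act upstream of collagenase and stromelysin transcription were counted in the same way. Of 16 tested AP-1 and ETS factors, 1 was called, FOSL2, which was lower with 235 and 216 counts against 153 and 150 (-0.60 ± 0.14, SE, adjusted p = 0.00541, edgeR's quasi-likelihood test). JUN had 6847 and 6363 counts against 6405 and 6591, and FOSL1 had 7091 and 6350 against 5787 and 6176, and neither was called. Of 8 tested cytokines and growth factors listed as possible regulators of these enzymes, 3 were called, all higher. TGFA, a ligand of the EGF receptor, had 35 and 44 counts against 139 and 127 (1.72 ± 0.20, SE, adjusted p = 2.2e-06, edgeR). CXCL8, which encodes interleukin 8, had 7 and 5 against 44 and 24 (2.45 ± 0.43, SE, adjusted p = 5.1e-04, edgeR), and PDGFB, a platelet-derived growth factor chain, had 1 and 1 against 17 and 11 (adjusted p = 0.00189, edgeR). PDGFB and CXCL8 passed the filter on low counts only through the shCHD7_2 samples, so the count of 3 higher is not a measure of the list. The FOSL2 call was lost without vector replicate 1 (-0.53) and with scaling by library totals (-0.56). It was also lost without a filter on low counts (adjusted p = 0.0687, edgeR) and in every limma setting (-0.34 to -0.47). With DESeq2 the FOSL2 call was kept (adjusted p = 0.0488).

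By fitted log2 fold change MMP10, MMP1 and MMP3 ranked 3, 5 and 7 of 11955 genes over the 4 samples, and TIMP2 ranked 111. MMP10, MMP1 and MMP3 were selected on their rise in these same samples, so their high ranks are a description only. The 5 called genes outside the 9 with the largest fitted log2 fold changes upwards, and without overlap between the groups, were PHOSPHO2-KLHL23 (0 and 0 counts against 24.98 and 15.91), ST20-MTHFS (0 and 0 against 10.46 and 14.21), the keratin gene KRT15 (1 and 0 against 15 and 11), PDGFB and the hexokinase-like HKDC1 (4 and 4 against 29 and 43). The first 2 are read-through genes, whose counts are shared with the genes they join and are uncertain. All 5 had at most 43 counts in any sample, whereas MMP1 reached 512, MMP10 107 and MMP3 36. Like MMP3 and MMP10, these 5 genes passed the filter on low counts only through the shCHD7_2 samples.

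Because fibroblasts and macrophages are known sources of these enzymes, their markers were read in the same libraries. Of 18 fibroblast markers 11 were measured and 5 tested. In edgeR ACTA2 (34 and 33 counts against 55 and 66) and COL5A1 (1 and 3 against 11 and 15) were called higher. TAGLN was called lower. There was 1 call of the 5 in DESeq2 and 0 in limma, and 2.88% of all genes tested were called in edgeR. COL5A1 passed the filter on low counts only through the shCHD7_2 samples, so the count of calls is not a measure of the list. COL6A1 (548 and 484 counts against 571 and 665) and VIM (829 and 879 against 695 and 715) were not called. LUM, PDGFRA and COL1A1 had at most 2, 3 and 7 counts in any library. The summed CPM of the 11 markers was 101.9 and 100.4 in the vector samples and 90.7 and 98.9 in the shCHD7_2 samples. Without VIM and FN1 the sum was 48.2 and 44.4 against 46.7 and 53.8, so its direction turned with VIM. Most of the sum without VIM and FN1 was COL6A1, at 35.3 and 30.7 CPM against 35.6 and 41.7. Of 10 macrophage markers 6 were measured, and all but CD68, a lysosomal protein that many cell types express, had at most 7.29 counts; CD68 was not called, and the summed CPM, nearly all of it CD68, was 908 and 850 against 998 and 1025. CD163 had no counts in the vector samples and 5 and 7 in the shCHD7_2 samples. The part of these markers in the metalloproteinase values was not tested. In bulk samples a higher level in every cell and a larger share of expressing cells cannot be told apart.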

How the data were processed

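RNA-seq of RKO cells (2 vector and 2 shCHD7_2 samples, grouped by the sample labels) was analysed. The authors deposited expected counts per gene, not normalized, and FPKM values for the same 15357 genes, normalized for length and depth; per the labels' processing notes, Bowtie2, RSEM, DESeq2 and hg38 were used, with roles, versions and annotation not given in the sources used here. Between 13.6% and 14.7% of the counts in a sample were not whole; counts were rounded. In R 4.3.3, edgeR 4.0.16 was used with filterByExpr (minimum count 10), TMM scaling and the quasi-likelihood test, and p-values of 11955 genes were adjusted by the Benjamini-Hochberg method. Calls required a 1.5-fold change and an adjusted p below 0.05. Standard errors were derived from the F statistic, and CPM used TMM-scaled totals. Replicates differed beyond counting noise (chi-square per gene 3.94 and 6.06). Alternatives used DESeq2 1.42.0 and limma 3.58.1 on log2(FPKM + 1). The script for the fits was tested on simulated data. Intervals cover counting error only. Locations came from GENCODE 29. Genes named were the 9 members, CHD7, other measured MMPs and inhibitors, called list genes and the 5 called genes with the largest rise whose groups did not overlap; the members, lists and rule were chosen with earlier results of these data known, and other genes named (such as BIRC3, YAP1, DYNC2H1, S100A10, CTSD, CD44, JUN, FOSL1 and the markers) were chosen after their values were seen. For 1 listed gene, no value is reported here.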

Additional observations from a re-analysis of the deposited data

How the results depend on the processing

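CHD7 and all of the 9 genes kept their direction under every alternative in which they were fitted. MMP3 was not called without a filter on low counts (3.61) or with limma on log2(FPKM + 1) without a filter (0.85), where TIMP2 gave 0.73, also not called, leaving 2 of the 9 genes called; with limma and a mean FPKM of at least 1, MMP3 was not fitted. Without a fold threshold 7 of the 9 were called, MMP14, MMP15 and PLAU included; of these, MMP14 was past the adjusted p neither with DESeq2, limma, no filter or the replicate block nor when any sample but shCHD7_2 replicate 2 was left out, and MMP15 neither with DESeq2 nor without vector replicate 2, and no filter lost all 3. Leaving out 1 sample gave MMP15 log2 fold changes of 0.33 to 0.66 and MMP25 values of -0.11 to 0.35. CHD7 was under 1.5-fold with limma, at -0.51 on log2(FPKM + 1) with and without the filter and at -0.58 on log2(FPKM + 0.1).

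Over all genes, 344 were called (180 higher, 164 lower), 141 without a filter (53 higher, 88 lower), 221 with DESeq2 (93 higher), 172 with limma on log2(FPKM + 1) (86 higher, 86 lower), 23 with limma and no filter (6 higher, 17 lower) and 1373 without a fold threshold (591 higher, 782 lower). Of the 9 called list genes outside the members, the counts became 2, 5, 3, 0 and 20 in the same order, and 4 with limma on log2(FPKM + 0.1); with DESeq2, the calls of ADAMTS9, KRT15, LOX, PDGFB and SPINT2 were lost (adjusted p = 0.0557 to 0.243). Scaling by library totals made 60.6% of calls higher, against 52.3%, and moved the median of all genes to 0.045. Leaving out 1 sample gave 308 to 380 calls. Deviations from the group mean were negatively correlated between samples with the same replicate number (-0.29). Blocking on the replicate number (replicate block) gave 329 called genes and 4 called members, and LOX lost its call (adjusted p = 0.0511, edgeR). Blocking on crossed numbers, tried after seeing the data, gave 423 called genes. TIMP1 and PLAUR were then past the adjusted p but under 1.5-fold, at log2 fold changes of 0.17 and -0.19. The cause of these shifts was not tested. Depth limits MMP3 and MMP10, whose vector samples held 1 to 6 counts.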
